A study of Mus musculus with 60 samples.

Results

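The cornified envelope genes of squamous epithelium described here were Lor, Ivl, Sprr1a, Sprr1b, Sprr3, Crct1, Krtdap, Sbsn, Tgm3 and Calml3, which are 10 of the 20018 gene symbols that the array could measure. They were found by matching the RefSeq accession of each probe to a symbol. This gave 13 of the 26413 probes with a symbol, because Ivl, Tgm3 and Calml3 had 2 probes each. Adult male Muta Mouse animals, a transgenic strain that carries a bacterial lacZ reporter for mutation assays, were given benzo(ghi)perylene, a polycyclic aromatic hydrocarbon, in olive oil by oral gavage for 28 days. The vehicle group (D0) received olive oil alone, and the exposed groups received daily doses, per kg of body weight, of 6.25 mg (D1), 12.5 mg (D2) and 25 mg (D3). All mice were about 10 weeks old. RNA came from random sections of lung, liver and forestomach collected 72 hours after the last dose, with 5 mice per dose and 60 arrays in all. A mouse number stands for the same animal in each tissue, from 1 to 5 in D0, 6 to 10 in D1, 11 to 15 in D2 and 16 to 20 in D3. On every array the tissue RNA was labelled with Cy5 and a common reference, RNA pooled from mouse cell lines, with Cy3. Levels are therefore given as log2 ratios of Cy5 to Cy3, on which a difference of 1 is a doubling, and levels of different probes were not compared with each other.

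The cornified envelope is a sheet of cross-linked protein that replaces the plasma membrane of keratinocytes as they die at the surface of stratified squamous epithelium. Its precursors are made in the upper living layers, cross-linked by transglutaminases and held among keratin filaments. In rodents the forestomach is lined with this kind of keratinising epithelium, whereas lung alveoli and liver are not.

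Loricrin (Lor) is a main structural protein of the envelope and involucrin (Ivl) one of its early scaffold proteins. Sprr1a, Sprr1b and Sprr3 are small proline-rich proteins that bridge other envelope proteins, and Crct1 is a small cysteine-rich protein. Krtdap and suprabasin (Sbsn) are secreted by differentiating keratinocytes, Tgm3 is a transglutaminase that cross-links envelope proteins, and Calml3 is a calmodulin-like protein of epithelial cells. Lor, Ivl, the 3 Sprr genes and Crct1 lie on chromosome 3, which carries the epidermal differentiation complex, a cluster of envelope genes. Krtdap and Sbsn are on chromosome 7, Tgm3 is on chromosome 2 and Calml3 is on chromosome 13.

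The bases just upstream of 5 of these genes are shown because these genes were high in the same tissue, and the stretch before the start can hold elements that genes share. They were taken from RefSeq (GRCm38.p6), run 5′ to 3′ in the direction of the gene and end at the base before its start. Capitals mark matches to TGANTCA, the core that AP-1 factors bind, and to TATAAA, the TATA box.
Lor (chr3:92083143-92083392, minus strand): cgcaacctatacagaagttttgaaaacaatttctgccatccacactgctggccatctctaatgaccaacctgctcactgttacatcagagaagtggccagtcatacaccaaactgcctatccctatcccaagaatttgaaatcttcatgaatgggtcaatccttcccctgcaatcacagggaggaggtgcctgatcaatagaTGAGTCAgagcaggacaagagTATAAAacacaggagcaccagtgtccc
Ivl (chr3:92573736-92573985, minus strand): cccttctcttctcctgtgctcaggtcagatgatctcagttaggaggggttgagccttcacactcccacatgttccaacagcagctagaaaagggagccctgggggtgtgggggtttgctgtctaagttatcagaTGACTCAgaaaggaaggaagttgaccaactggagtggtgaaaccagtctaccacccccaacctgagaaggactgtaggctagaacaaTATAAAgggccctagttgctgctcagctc
Sprr1a (chr3:92485882-92486131, minus strand): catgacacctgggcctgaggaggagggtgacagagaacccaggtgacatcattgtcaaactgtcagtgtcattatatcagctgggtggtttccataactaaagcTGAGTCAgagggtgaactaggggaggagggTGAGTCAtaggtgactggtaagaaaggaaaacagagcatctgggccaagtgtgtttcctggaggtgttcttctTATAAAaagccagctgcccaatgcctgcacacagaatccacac
Sprr3 (chr3:92458721-92458970, minus strand): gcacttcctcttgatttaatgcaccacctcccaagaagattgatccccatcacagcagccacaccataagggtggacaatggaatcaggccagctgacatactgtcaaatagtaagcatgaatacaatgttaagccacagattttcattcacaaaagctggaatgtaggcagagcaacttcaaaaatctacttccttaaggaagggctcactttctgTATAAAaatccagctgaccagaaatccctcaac
Krtdap (chr7:30787655-30787904, plus strand): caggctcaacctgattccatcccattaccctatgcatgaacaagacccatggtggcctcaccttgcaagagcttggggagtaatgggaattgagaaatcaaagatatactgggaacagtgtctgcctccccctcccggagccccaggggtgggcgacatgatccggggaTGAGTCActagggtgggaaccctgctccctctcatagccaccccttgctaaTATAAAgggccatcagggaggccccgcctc

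Of the 10 genes, 8 were in the RefSeq promoter table, and windows of 300 bases, from 250 before to 50 after the start, were searched on both strands. TGANTCA was found in 6 of these 8 windows (Lor, Ivl, Sprr1a, Sprr1b, Krtdap and Sbsn) and in 7.81% of the 32851 windows of the table. Sprr1a and Sbsn held 2 matches each, and Sprr3 and Tgm3 held none. TATAAA was found in 7 of the 8 windows, all but that of Sbsn, and in 13.6% of all windows. AACCNGTT, the core that Grainyhead-like factors bind, was in 0 of the 8 windows and in 2.09% of all windows. These are matches of letters and do not show binding, and neighbouring Sprr genes share sequence by descent.

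Several arrays carried genes of another tissue, and the values they touch are given with them. The lung of vehicle mouse 1 carried the squamous genes and skeletal muscle genes described below, and the lung of mouse 20 (D3) carried liver genes (Alb 5.08 against a median of 0.20 over the lungs other than that of mouse 1). The forestomach of vehicle mouse 2 carried the surfactant genes Sftpc (7.57) and Sftpa1 (6.48), which over the 20 forestomach arrays had medians of 0.45 and -0.03, and Alb reached 5.25 in the forestomach of mouse 15. Gkn2, a gastrokine of the glandular stomach, ranged from 0.14 to 9.59 over the forestomach arrays. Between 21.4% and 58.7% of probes were well above background on each array, and the lowest values were those of forestomach arrays. The tissue labels were otherwise borne out, since Sftpc ranged from 8.13 to 8.89 in lung, Alb from 6.58 to 7.90 in liver, and Krt1, a keratin of differentiated squamous cells, from 7.44 to 9.34 in forestomach. In such bulk RNA, fewer cells of a type and less RNA per cell cannot be told apart.

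In vehicle mice the squamous genes were far higher in forestomach than in lung or liver. Counting each gene by its brightest probe, 9 of the 10 genes were called higher in forestomach than in lung by limma (adjusted p up to 0.05 and 1.5-fold or more), where 33.2% of all 33273 probes tested were called in either direction. The same 9 genes were higher than in liver, where 39.2% of all probes were called. These counts are no separate support, because Ivl, Sprr1b, Sprr3, Crct1 and Krtdap passed the filter on dim probes through forestomach and not in lung or liver, and Calml3 not in liver. The exception was the brightest probe of Tgm3, and the other Tgm3 probe was called in both comparisons. The median difference over all probes tested was near 0, at -0.02 against lung and 0.02 against liver.

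**Figure D1:**
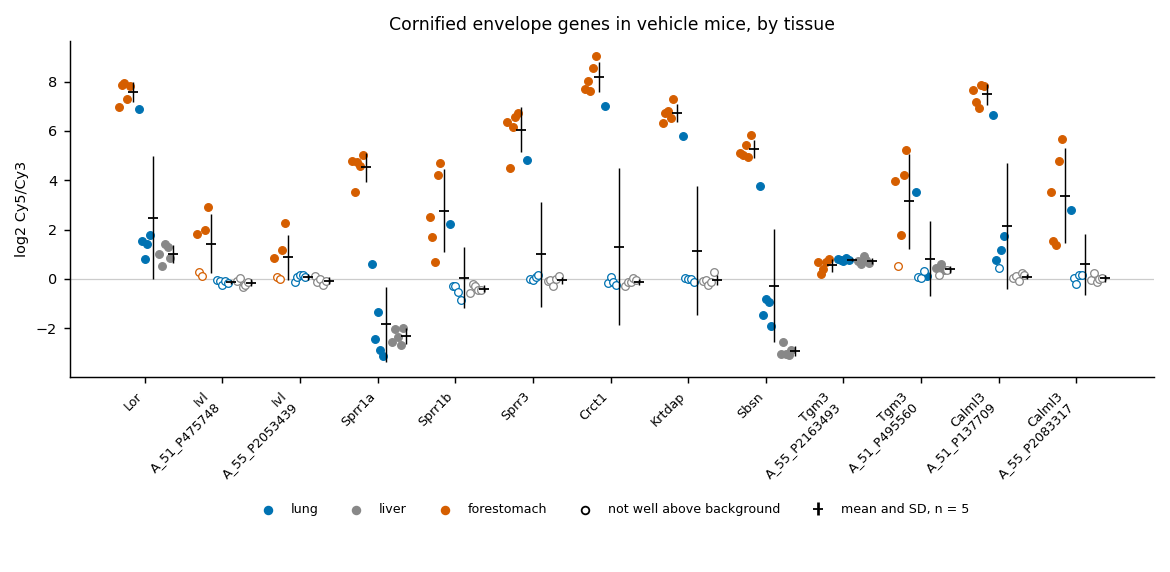
Log2 ratio of Cy5 to Cy3 of the 13 probes of the 10 genes (x axis, with probe names where a gene has 2) in the 5 vehicle mice by tissue; points are mice, open points were not well above background, and bars are the mean and SD. Forestomach points lie above those of liver for most probes, and 1 blue lung point, mouse 1 (7.01 for Crct1), stands above the other 4 lungs for most probes.

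Lor was 6.98, 7.88, 7.92, 7.29 and 7.81 in the forestomachs of vehicle mice 1 to 5. In their lungs it was 6.89, 1.52, 0.81, 1.41 and 1.76, and in their livers 1.00, 0.51, 1.40, 1.28 and 0.83. All forestomach values were above all lung and liver values, although the lung of mouse 1 came within 0.09 of the forestomach of the same animal. Lor was thus higher by 5.10 (SE 0.49, adjusted p = 1.04e-12) in forestomach than in lung, and by 6.57 (adjusted p = 4.32e-17) than in liver. The SE and p of such tissue comparisons come from a spread pooled over all 12 groups. They do not measure the spread of the 5 vehicle lungs, whose SD was 2.49 for Lor. With both tissues of mouse 1 left out the difference from lung was 6.35. Its upstream sequence shows an AP-1 core 48 bases before the start and a TATA box 27 bases before it.

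Ivl was 1.81, 0.29, 0.13, 1.97 and 2.92 in the 5 vehicle forestomachs and well above background in 3 of them (mice 1, 4 and 5). It was not well above background on any lung or liver array of the series. The difference was at least 2.14-fold against lung and at least 2.02-fold against liver, with adjusted p of 0.000125 and 7.46e-05. Such bounds compare normalized Cy5 signals with the lowest signal that was well above background on each dim array. For these signals, ratios were loess-normalized within arrays, and the mean log2 intensity of both channels was quantile-normalized between arrays. The bounds are open to dye bias because dyes were not swapped. The measured means of that signal for Ivl were 7.11 in forestomach, 5.85 in lung and 5.82 in liver (log2). By the second Ivl probe it was at least 1.42-fold higher than in lung (adjusted p = 0.00802) and at least 1.34-fold higher than in liver (adjusted p = 0.00154), with means of 6.52, 5.82 and 5.85.

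The small proline-rich genes split by how even their log2 ratios were. On the normalized Cy5 signal over all 20 forestomach arrays the order differed, with an SD of 1.33 for Sprr3, 1.15 for Sprr1b and 0.77 for Sprr1a. Sprr1a was 4.79, 3.53, 4.75, 4.57 and 5.01 in vehicle forestomach, 0.59, -2.46, -1.36, -2.90 and -3.11 in lung. In the vehicle livers it was -2.57, -2.02, -2.36, -2.69 and -1.99. It stayed higher in every one of the 20 forestomach arrays than in all 40 lung and liver arrays. The difference from lung was 6.38 (SE 0.36, adjusted p = 3.84e-21), and 6.92 with both tissues of mouse 1 left out. Sprr3 was 6.35, 4.48, 6.16, 6.55 and 6.73 in forestomach and 4.82, 0.01, -0.06, 0.06 and 0.14 in lung. The groups overlapped through the lung of mouse 1 and the forestomach of mouse 2, the array with the surfactant genes. Sprr3, measured in the lung of mouse 1 alone, was higher by 5.06 than in lung (adjusted p = 2.08e-14) and at least 323-fold without that lung (mean Cy5 signals 14.34 and 5.72). It was higher by at least 303-fold than in liver (adjusted p = 5.58e-18), with mean Cy5 signals of 14.34 and 5.73 (log2). On the ratio Sprr1b was the least even. It was 2.52, 1.69, 0.67, 4.22 and 4.68 in forestomach and 2.21, -0.28, -0.28, -0.54 and -0.87 in lung. It differed by 2.71 (SE 0.55, adjusted p = 4.19e-05) from lung, and at least 6.01-fold without the lung of mouse 1, again the only one where it was measured (mean Cy5 signals 8.53 and 5.82). It was at least 5.42-fold higher than in liver (adjusted p = 2.08e-06, mean Cy5 signals 8.53 and 5.85).

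Crct1 was 7.70, 8.03, 7.61, 8.56 and 9.04 in vehicle forestomach and 7.01, -0.18, 0.06, -0.11 and -0.24 in lung. It was not well above background in any liver or in any lung but that of mouse 1. It differed by 6.88 (SE 0.60, adjusted p = 4.47e-14) from lung with mouse 1, and was at least 1982-fold higher without the lung of that mouse, with mean Cy5 signals of 16.94 and 5.81 (log2). The forestomachs of mice 1 to 5 exceeded their own lungs by 0.68, 8.21, 7.54, 8.67 and 9.28, a spread that the pooled SE does not measure. Against liver Crct1 was at least 1839-fold higher (adjusted p = 1.34e-17), with mean Cy5 signals of 16.94 and 5.89 (log2).

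Krtdap was 6.33, 6.72, 6.80, 6.51 and 7.28 in forestomach and 5.80, 0.03, 0.01, 0.00 and -0.12 in lung. As for Crct1, the lung of mouse 1 was the only lung where it was well above background. The difference from lung was 5.58 (adjusted p = 3.34e-14) with mouse 1, and at least 2605-fold without its lung (mean Cy5 signals 17.35 and 5.85). Krtdap was at least 2412-fold higher than in liver (adjusted p = 7.65e-18, mean Cy5 signals 17.35 and 5.86). Sbsn, the other secreted protein, was 5.11, 5.03, 5.42, 4.95 and 5.83 in forestomach, 3.77, -1.47, -0.82, -0.93 and -1.89 in lung, and -3.04, -2.58, -3.05, -3.09 and -2.88 in liver. All values of a tissue were above all values of the next, in the order forestomach, lung and liver. Sbsn differed by 5.54 (adjusted p = 8.04e-15) between forestomach and lung, and by 8.20 (adjusted p = 5.23e-22) between forestomach and liver. With both tissues of mouse 1 left out, the difference from lung was 6.59.

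The Tgm3 probes disagreed. Probe A_51_P495560 was 3.96, 0.54, 1.79, 4.23 and 5.24 in vehicle forestomach, 3.52, 0.07, 0.03, 0.34 and 0.11 in lung, and 0.15 to 0.59 in liver. It was higher by 2.34 (adjusted p = 0.000909) than in lung and by 2.77 (adjusted p = 8.14e-05) than in liver. With both tissues of mouse 1 left out, the difference from lung was 2.81. The brighter probe A_55_P2163493 was well above background on all 60 arrays and had almost the same level in each tissue, with means of 0.78 ± 0.05 in lung, 0.73 ± 0.12 in liver and 0.55 ± 0.26 in forestomach (SD, n = 5). Its difference from lung was -0.23 (adjusted p = 0.0702). Probe sequences were not used here, so which transcripts each probe reads is not known.

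Calml3 was 7.65, 7.15, 6.92, 7.86 and 7.81 in vehicle forestomach and 6.63, 0.78, 0.45, 1.16 and 1.73 in lung, with no overlap. It differed by 5.33 (SE 0.55, adjusted p = 7.19e-12) from lung, and by 6.41 with both tissues of mouse 1 left out. It was not well above background on any liver array, and was at least 295-fold higher in forestomach than in liver (adjusted p = 2.9e-17, mean Cy5 signals 14.30 and 5.82). Among vehicle lungs the second, dimmer Calml3 probe was well above background in that of mouse 1 alone, and without that lung it was at least 8.50-fold higher in forestomach (mean Cy5 signals 9.11 and 5.84).

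Ratios understate the largest of these differences. The Cy3 signal of the common reference was itself brighter on arrays where the Cy5 signal was very bright. For Crct1 its median was 569 in vehicle forestomach against 44 in liver, although the same RNA was in that channel. With the unnormalized Cy5 signal alone, set against the upper quartile of its array, the difference of Lor from lung was 8.42. On that scale 9 of the 10 genes were again called against both tissues. The filter on dim probes was the same, so this count is no separate support either.

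Between vehicle lung and liver, 6 of the 10 genes were higher in lung (Lor, Sprr3, Crct1, Krtdap, Sbsn and Calml3), where 44.3% of all probes were called. Most of this rested on 1 mouse. With both tissues of mouse 1 left out, only Sbsn and Calml3 were called. Sbsn was higher in lung by 1.62 (adjusted p = 1.14e-06). Calml3, at background in liver, had an adjusted p of 0.031, but its bound was at least 1.41-fold (mean Cy5 signals 6.60 and 5.84), short of the 1.5-fold that a call asked for. Averaged over the 4 doses, which puts mouse 1 among 20 lungs, 2 genes were called too. Sbsn was well above background on all 60 arrays, and its lung values other than that of mouse 1 lay between -1.89 and -0.77 over all doses while its liver values lay between -3.22 and -2.58.

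The remaining genes of the same programme, in lists drawn up with earlier results of these arrays known, were compared in the same way in vehicle mice. Of 43 other cornified envelope genes, 37 were tested, and 34 were higher and 1 lower in forestomach than in lung, with a median difference of 4.23 against -0.02 over all probes. Against liver 35 were higher and 0 lower. Many entered through forestomach, where they are high, since 12 passed the filter in lung and 8 in liver. Of the 37, 25 were well above background in no vehicle lung but that of mouse 1, and 26 in no vehicle liver, so the counts and medians are no separate support. With such genes at their bound on the Cy5 scale, the median was 6.34 against lung (6.90 without the lung of mouse 1) and 6.69 against liver. Cdsn, which encodes corneodesmosin, an adhesion protein of cornified cells, was higher by 6.51 than in lung (adjusted p = 2.24e-17). Lce3a, a late envelope protein, was at least 528-fold higher than in liver (adjusted p = 6.78e-16, mean Cy5 signals 15.14 and 5.84). Tchh (trichohyalin, of the hair follicle), the gene lower than in lung, was not well above background in any vehicle forestomach. Of 14 keratins of stratified epithelium, 13 were higher than in lung and 13 than in liver. Here too 8 passed the filter in lung and 7 in liver, and 6 were well above background in no vehicle lung but that of mouse 1 and 6 in no vehicle liver, so these counts are no separate support. Krt1, not well above background in any vehicle lung or liver, was at least 1443-fold higher than in lung and at least 1343-fold higher than in liver (adjusted p = 2.39e-38 and 1.16e-39), with mean Cy5 signals of 16.52, 5.91 and 6.03 (log2). Of 12 transcription factors of squamous differentiation, 9 were higher than in lung and 0 lower, and 8 were higher and 1 lower than in liver. Of these factors 11 passed the filter in lung and 8 in liver, and 3 were well above background in no vehicle liver. These counts, too, are no separate support. Grhl3 differed by 4.50 from lung, Grhl1 by 3.40 and Klf4 by 1.61. Fosl1 and Junb, subunits of AP-1, differed by 1.12 (adjusted p = 0.00915) and 0.70 (adjusted p = 0.0138), each well above background in 2 of the 5 vehicle forestomachs. Trp63 was the factor that was lower than in liver, at -0.67, but at 0.35 by the Cy5 signal alone.

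The lung of vehicle mouse 1 carried most of the squamous genes above the other 19 lungs, at levels that for several of them were still below those of forestomach. Of the 20 lungs it was the highest by 10 of the 13 probes, which covered 9 of the 10 genes. Counted by the brightest probe alone it was the highest for 8 of the 10 genes, where 1233 of 15535 symbols (7.94%), counted in that way, had their highest value on this array. Crct1, Krtdap, Sprr3 and Sprr1b were well above background in no other lung, so their folds are bounds. Crct1 was 7.01 there and between -0.43 and 0.06 in the other 19, at least 397-fold higher by the Cy5 signal (14.65 against a measured mean of 5.80, log2). By the same measure Krtdap was at least 381-fold higher (14.60 against 5.76), Sprr3 at least 33.6-fold (11.08 against 5.78) and Sprr1b at least 4.79-fold (8.24 against 5.79). The log2 ratio of Lor exceeded the median of the other lungs by 5.85, that of Calml3 by 5.52, that of Sbsn by 5.11 and that of Sprr1a by 3.48. For Tgm3 (A_51_P495560), well above background on 5 of the other 19, the gap was 3.39. Ivl, at -0.05 and -0.11 by its 2 probes, was not well above background in this lung, and the brighter Tgm3 probe was 0.81 among lungs that ranged from 0.60 to 0.88. These values describe 1 array, the one for which the lungs were searched.

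**Figure D2:**
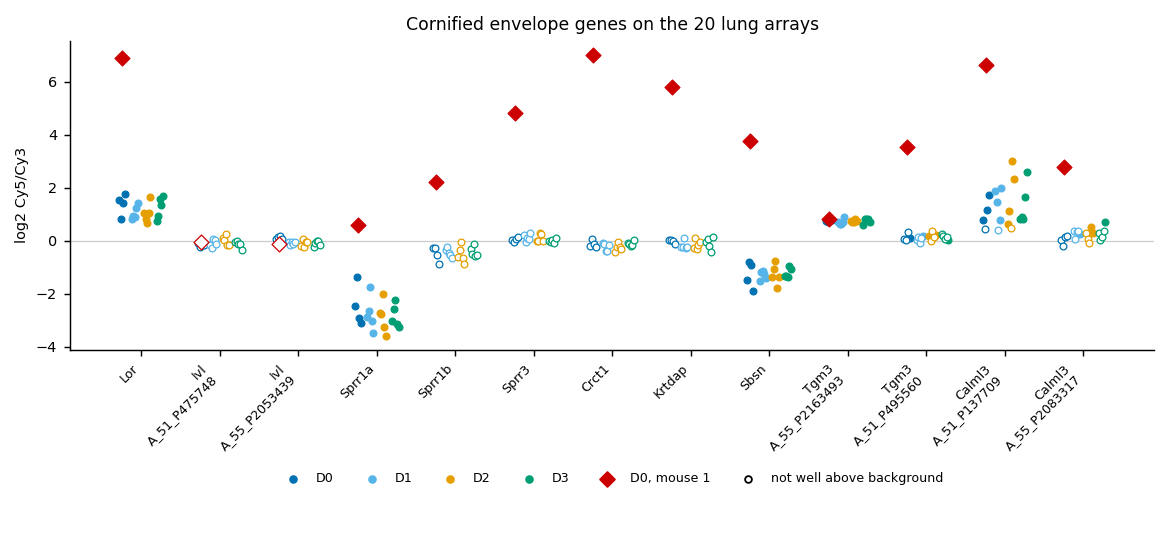
Log2 ratio of Cy5 to Cy3 of the 13 probes on the 20 lung arrays, by dose (colour), with vehicle mouse 1 as a red diamond and open symbols for values not well above background. The diamond stands above the other 19 lungs for 10 probes, with Crct1 at 7.01, and lies among them for Ivl and for Tgm3 probe A_55_P2163493.

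The same lung stood out for 229 of 15535 symbols, which were at least 2 (log2) above the median of the other lungs. On the other 19 lung arrays this count was 0 to 127, with 127 on that of mouse 20 and 29 on that of mouse 14. Among symbols whose probe passed the filter on dim probes in at least 1 tissue, the 20 with the largest gaps, leaving out the members, were of 2 kinds, and 5 of them were well above background in no other lung. A gene seen on this lung alone fails that filter, as did the muscle myosin Myh1 (6.24 against -0.22), which is named after its value was seen. One was squamous: Ada, Lce3a, Krt13, Krt4, Mt4, Lce3b, Serpinb3a, Cysrt1, Asprv1, Lce3c, Calm4, Serpinb3c and Pkp1. The other was skeletal muscle: Acta1, Tnni2, Tnnc2, Myl1, Myh8, Neb and Tnnt3. Acta1, the actin of skeletal muscle, was 6.90 against a median of -1.86, and Krt13, a keratin of non-cornified squamous layers, was 5.53 against -1.91.

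By list, all 13 skeletal muscle genes, 27 of 38 other cornified envelope genes and 10 of 14 keratins on the array had their highest lung value in this mouse, against the 7.94% of all symbols given above. Of these, 13, 26 and 8 were also well above background there, and the others (Sprr2k, Krt6a and Krt1) were ranks among background values. The summed Cy5 signal was 19.37 (log2) for the muscle list against 10.29 to 12.08 in the other lungs, 17.24 for the envelope list against 12.50 to 12.76, and 16.44 for the keratins against 9.98 to 10.34. Of the 12 transcription factors 4 were highest there, namely Grhl3 at 4.34 (highest other lung 0.91), Zfp750 at 2.45 (1.99), Grhl1 at 2.02 (1.35) and Ovol1 at 1.22 (0.38), but their summed signal of 15.27 lay within the range of the other lungs (15.14 to 15.67). None of the 9 glandular stomach, 6 liver or 6 lung epithelium genes was highest there, and of the 5 thymus and 10 hair follicle genes 1 and 2 were. Sftpc was 8.13, the lowest of the 20 lungs, whose highest was 8.89. What share of this tissue sample was squamous or muscle was not tested.

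The squamous genes of this lung were not those of forestomach in full. All 16 Lce genes on the array were well above background there (1.05 to 7.53), as they were on all 20 forestomach arrays. None of the 8 Sprr2 genes was, although Sprr2d and Sprr2i had forestomach medians of 5.90 and 6.93. Krt4, a keratin of internal squamous epithelium such as that of the oesophagus, was 6.58 against a forestomach median of 6.98. Krt1 and Krt10, which pair in cornifying layers, were -0.03 and 0.42 against 8.49 and 7.11. Krt6b was 1.95 against 7.81. Among the members the gap of the ratio to the forestomach median was 0.68 for Lor, 0.76 for Krtdap, 0.99 for Crct1, 1.59 for Sprr3 and 4.15 for Sprr1a. The normalized Cy5 signal, which the brighter Cy3 of these probes does not lessen, gave larger gaps of 1.07 for Lor, 2.88 for Krtdap, 2.60 for Crct1, 4.00 for Sprr3 and 5.03 for Sprr1a (log2). For Sprr1b and Tgm3 (A_51_P495560) the Cy5 gaps were 0.13 and 0.20.

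**Figure D3:**
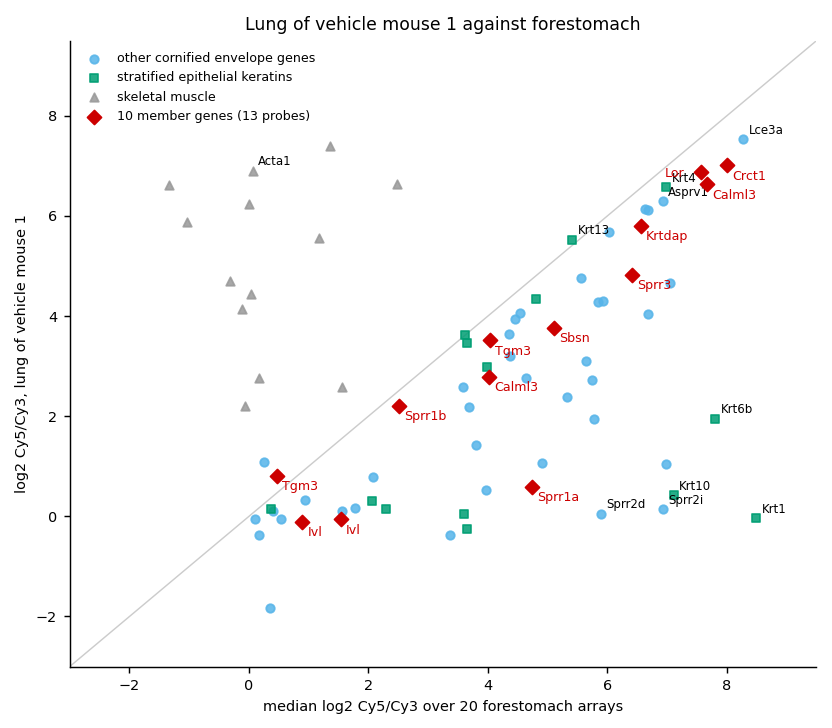
Log2 ratio in the lung of vehicle mouse 1 (y axis) against the median over the 20 forestomach arrays (x axis), 1 point per probe for the members and 1 per gene for 3 lists; the line marks equality. On this ratio scale, which narrows the gaps of the brightest probes, Lor, Krtdap and Crct1 lie 0.68, 0.76 and 0.99 below the line, Krt1, Krt10, Sprr2i and Sprr1a lie further below it, and skeletal muscle genes such as Acta1 lie above it.

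In the other 19 lungs, 5 of the 10 genes (Ivl, Sprr1b, Sprr3, Crct1 and Krtdap) were well above background on 0 arrays. Lor, Sprr1a, Sbsn and the brighter Tgm3 probe were well above it on all 19. Calml3 was well above background on 16 of them. It was 2.99 on the lung of mouse 14 (D2), 2.59 on that of mouse 20 (D3), 2.31 on that of mouse 15 (D2) and 1.99 on that of mouse 10 (D1), against 1.14 as the median of all 20. Among the 19, Krt5, a keratin of basal cells, was 1.06 for mouse 14 and 1.02 for mouse 20, against a median of 0.00.

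Over the 20 forestomach arrays the spread of the members depended on the scale. The SD of the log2 ratio was 0.36 for Krtdap, 0.40 for Sprr1a, 0.45 for Lor and 0.46 for the brighter Calml3 probe, and 0.55 to 0.56 for Sbsn, Crct1 and Sprr3. It was 0.91 for Ivl, 1.35 for Sprr1b, 1.44 for Tgm3 (A_51_P495560) and 1.48 for the dimmer Calml3 probe. Tgm3 ranged from 0.54 to 5.24, and Sprr1b from 0.67 to 4.68. On the normalized Cy5 signal, where a brighter Cy3 does not narrow the differences, the SD was 0.86 for Krtdap, 0.77 for Sprr1a, 0.80 for the brighter Calml3 probe and for Sbsn, 1.05 for Crct1 and 1.33 for Sprr3 (log2). It was 0.78 for Ivl, 1.15 for Sprr1b, 1.56 for Tgm3 and 1.38 for the dimmer Calml3 probe there. Lor had an SD of 0.47 on that scale, close to its SD on the ratio.

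Several members differed by slide. Each of slides 1 to 5 held the forestomach and lung of 1 mouse per dose, so slide and dose were balanced, but array position and dose coincided and cannot be told apart. Liver arrays were all on slides 6 to 8, and lung and forestomach lay in different rows. Differences from liver thus cannot be told apart from slide, nor those between forestomach and lung from row. Slides 1, 4 and 5 each had higher mean ratios than slides 2 and 3 for several probes, but not for all. Among them were Ivl, Sprr1b, Tgm3 (A_51_P495560) and the dimmer Calml3 probe. The mean over the 12 forestomach arrays of slides 1, 4 and 5 exceeded that over the 8 arrays of slides 2 and 3 by 2.29 for the dimmer Calml3 probe, 2.07 for Tgm3, 1.96 for Sprr1b and 1.42 for Ivl, and by 0.05 for Lor, 0.21 for Sbsn and 0.25 for Krtdap. On the normalized Cy5 signal these differences were 2.00, 2.11, 1.66 and 1.17, and -0.26 for Lor, 0.29 for Sbsn and 0.39 for Krtdap, while Sprr3 went from 0.71 on the ratio to 1.37. This split was made after the values were seen, so it has no test. By the mean ratio slide 5 was highest for all 13 probes. Slide 1 was the lowest for Lor (7.07) and Krtdap (6.36), and slide 4 for Sbsn (4.64).

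**Figure D4:**
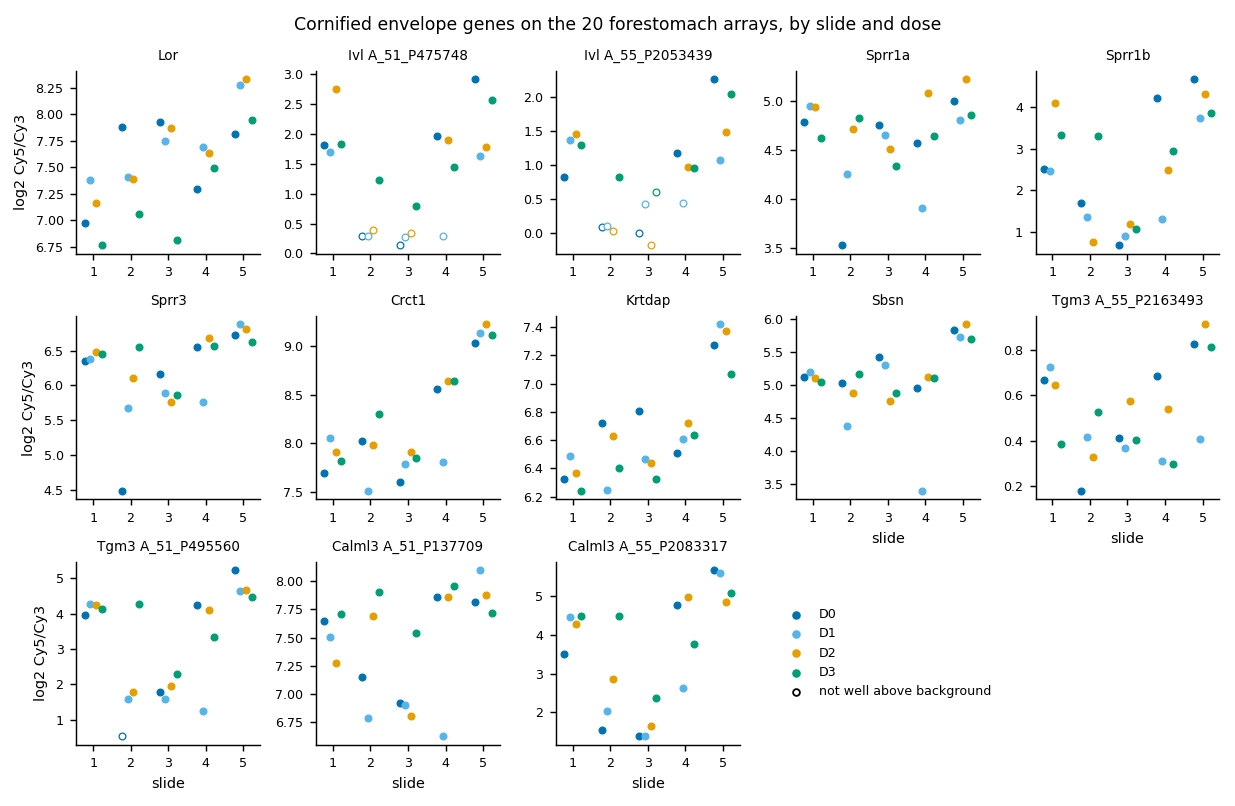
Log2 ratio of each of the 13 probes on the 20 forestomach arrays by slide (x axis, 1 array per dose on each slide) and dose (colour); open points were not well above background, and each panel has its own y axis. Tgm3 probe A_51_P495560 spans 0.54 to 5.24 with its low values on slides 2, 3 and 4, whereas Lor spans 6.76 to 8.33, and doses are mixed within slides.

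Other measures moved with the members of larger slide differences. The percent of probes well above background was 21.4 to 27.2 on the forestomach arrays of slide 3, and 49.4 to 53.4 on those of slide 5. Gkn2 was above 8 on the forestomachs of mice 2, 3, 7, 8, 9, 12 and 13, and on these Tgm3 was 0.54 to 1.95 and Ivl 0.13 to 0.39. On the forestomachs of mice 10, 14 and 19, however, Gkn2 was also above 8, and Tgm3 was 4.64, 4.11 and 3.33. Krt4 was lowest on the forestomach of mouse 2 (3.16). The lowest Sprr1a (3.53) and the lowest Sprr3 (4.48) were on that array too, and the lowest Sbsn (3.40) was on that of mouse 9, which had the highest Gkn2 (9.59). The part of array brightness or of glandular stomach in these values was not tested.

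As a description, the 78 pairs of probes had Pearson correlations over the 20 forestomach arrays of -0.08 to 0.94, with a median of 0.62, and 75 were above 0. With slide means removed they ran from -0.60 to 0.93, with a median of 0.44, and 61 were above 0. Tgm3 (A_51_P495560) and the dimmer Calml3 probe were most alike (0.94), and remained so once slide means were removed (0.93). Lor was at -0.08 with Ivl and -0.04 with Tgm3, and at -0.53 and -0.50 without slide means. With Krtdap it was at 0.82 (0.68 without slide means), and with Crct1 at 0.54 (-0.10). The 20 arrays share slides and differ in brightness, so these values do not separate genes from arrays.

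The genes most like the mean of the members over these 20 arrays, of 13236 symbols, were Ephx3 and Rnf225 (r = 0.97), Gpld1 (0.963), Atp13a5 (0.961), Kcnv1 and Lce1h (0.958), S100a14 and Il1rn (0.954), Wnt7b (0.953) and Vsig8 (0.952). Ephx3 is an epoxide hydrolase, Lce1h is a late envelope protein, and Il1rn encodes the antagonist of the interleukin 1 receptor. These values carry the same shared slides and brightness.

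None of the 10 genes passed the threshold for a change with benzo(ghi)perylene in any tissue. At D1, D2 and D3 in lung, liver and forestomach, 0 members were called in limma and 0% of all probes were called (0 of 31041 in lung, 25907 in liver and 25107 in forestomach). With an unadjusted p under 0.05 the members also counted 0 in all 9 comparisons. Over all probes this count was, for D1, D2 and D3 in turn, 689, 1055 and 1492 in lung, 785, 1074 and 3147 in liver, and 2353, 917 and 377 in forestomach. With at most 13 member probes tested, a count of 0 does not set the members apart from all probes. All 10 genes passed the filter on dim probes in forestomach, 5 in lung (Lor, Sprr1a, Sbsn, Tgm3 and Calml3) and 4 in liver (the same without Calml3). For each of the 13 probes every dose group overlapped D0 in every tissue. Overlap was not counted over all probes, so this does not set these genes apart.

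In forestomach the differences from D0 were small against the spread. They ran from -0.80 (Sprr1b, SE 0.83) to 0.12 at D1, from -0.18 to 0.37 (Sprr1a, SE 0.24) at D2, and from -0.36 (Lor, SE 0.26) to 0.65 (dimmer Calml3 probe, SE 0.92) at D3. Lor was 6.76, 7.06, 6.81, 7.49 and 7.95 in the 5 D3 forestomachs, overlapping the D0 range of 6.98 to 7.92, with 2 values below it and 1 above. Its change of -0.36 had an unadjusted p of 0.187 and an adjusted p of 1 in limma. It was 0.043 on slides 1, 4 and 5 alone and 0.20 with the Cy5 signal alone, where its sign turned. Crct1 was 7.82, 8.31, 7.85, 8.64 and 9.12 at D3 and higher than the D0 array of the same slide on 5 of 5 slides, but by only 0.08 to 0.28, with a change of 0.16 (SE 0.35) and an adjusted p of 1. Calml3 was 7.71, 7.90, 7.54, 7.95 and 7.72 at D3, and higher on 4 of 5 slides, by 0.28 (SE 0.27) on average.

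With slide as a block, the fit that takes the differences within slides, 0 members were called in forestomach, and the lowest adjusted p was 0.286 at D1, 0.572 at D2 and 0.774 at D3. Over all alternatives, which move these adjusted p-values between 0.286 and 1, 0 members were called. With slide as a block, 1 member probe in lung at each dose and 1 in forestomach at D3 had an unadjusted p under 0.05 in limma.

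In lung all 7 probes that could be tested were lower than D0 at each dose, by 0.07 to 1.41 at D1, 0.05 to 1.44 at D2 and 0.03 to 1.22 at D3. Much of the size of these differences came with mouse 1, which is in D0. Lor was -1.22 at D3 (SE 0.74, adjusted p = 0.998) with it and -0.12 without it, and Sbsn was -0.95 with it and 0.06 without it. Without mouse 1, the 7 probes ran from -0.31 to 0.28 at D1, from -0.41 to 0.47 at D2 and from -0.39 to 0.33 at D3, with 2, 4 and 3 of them above D0. Sprr1a kept its sign without mouse 1, at -0.31, -0.41 and -0.39 (adjusted p = 1 at each dose in limma). On slides 2 to 5, which do not hold that mouse, it was below the D0 array of the same slide on 4 of 4 slides at each dose, by -0.38 to -0.14 at D1, -0.67 to -0.30 at D2 and -0.86 to -0.13 at D3, with the same D0 arrays serving all 3 doses. Calml3 went the other way there, above D0 on 4 of 4 slides at D2 (0.03 to 1.84) and D3 (0.12 to 0.86) and on 2 of 4 at D1, and its dimmer probe was above D0 on 4, 4 and 3 of 4 slides at D1, D2 and D3. Without mouse 1 Calml3 had an adjusted p of 1 at each dose too. With slide as a block and mouse 1 kept, the adjusted p of Sprr1a was 0.507, 0.313 and 0.226. In liver the 5 probes tested stayed between -0.20 and 0.14 at all doses.

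**Figure D5:**
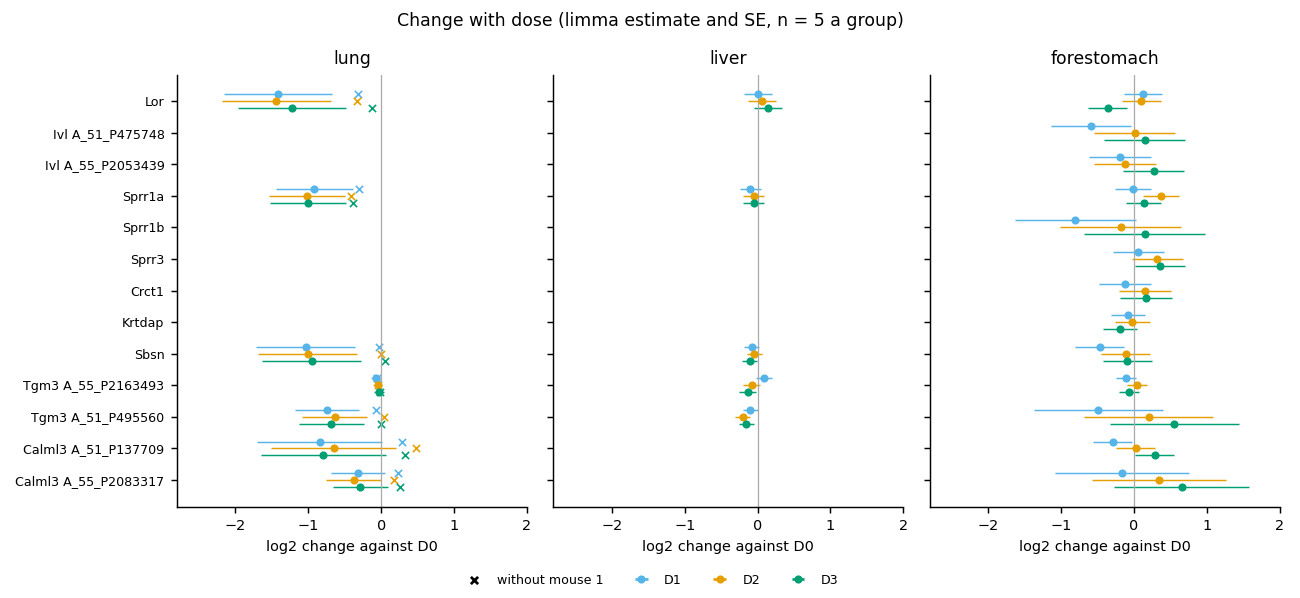
Log2 change against D0 at D1, D2 and D3 in each tissue, with the limma estimate as a point and its SE as a bar (n = 5 per group), for the probes that could be tested; crosses in the lung panel leave out mouse 1. In lung all points lie below 0 and the crosses lie between -0.41 and 0.47; no point passed the threshold.

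Interaction contrasts compared the D3 response of one tissue with that of another. For forestomach minus lung, forestomach minus liver and lung minus liver, 0 members and 0% of the 33273 probes were called in limma. At an unadjusted p under 0.05 the counts over all probes were 685, 1417 and 984, and those of members 2, 0 and 0. The 2 were Sprr1a (1.13, adjusted p = 1) and Sprr3 (1.36, adjusted p = 1), and without mouse 1 these were 0.59 and 0.48 (adjusted p = 1 for both).

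The lists around the members gave the same count with dose. Of the other cornified envelope genes, 0 were called at any dose in any tissue, with medians at D3 of 0.21 in forestomach (37 genes), -0.39 in lung (12 genes) and -0.06 in liver (8 genes), the lung D0 group holding mouse 1. Of the keratins and of the transcription factors 0 were called, and at an unadjusted p under 0.05 the 3 lists counted 0 in all 3 forestomach comparisons. At that p, for D1, D2 and D3, keratins counted 1, 2 and 1 of 8 in lung and transcription factors 0, 1 and 1 of 8 in liver, and the other counts of these lists in lung and liver were 0.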

How the data were processed

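RNA of lung, liver and forestomach of 20 mice was measured on 60 two-colour arrays. The deposited scanner files give the median signal intensity of each spot in Cy5 and Cy3, processed signals and quality flags. The deposited series matrix holds log2 ratios that the authors had normalized by LOWESS; the ratios computed here correlated with them at 0.992 to 0.999, and the medians of its columns lay between -0.04 and -0.01. Of 62976 spots, 3671 controls were left out. Values with an outlier flag (0.46%) were set to missing, and no value was saturated. Log2 ratios of median signals, without background subtraction, were loess-normalized within arrays and averaged over the spots of a probe (55681 probes) in limma 3.58.1 under R 4.3.3, with the data.table package (1.17.8). For the normalized Cy5 signals and the bounds, the mean log2 intensity of both channels was also quantile-normalized between all 60 arrays. Promoters, sensitivity tables and figures were made in Python 3.11.15 with pandas 2.3.3, numpy 2.4.6 and matplotlib 3.10.9.

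A probe was tested where 5 or more of the 20 arrays of a tissue had its Cy5 signal well above background. Each dose was compared with D0 by lmFit and eBayes over the 20 arrays of a tissue, and tissues by a model of all 60 arrays with 12 groups. Tests were two-sided, adjusted by the Benjamini-Hochberg method over all probes tested; a call needed an adjusted p up to 0.05 and 1.5-fold or more. The methods' MAANOVA test was not used here. A gene is represented by its brightest probe, with others beside it. The number of arrays limits the precision. The procedure was tested on simulated data.

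Named genes were all members, the 10 symbols most correlated with their mean in forestomach, the 20 with the largest gap in the lung that stood apart, and genes of the lists. Members and lists were chosen with earlier results of these data known. Mouse numbers pair tissues of the same animal: the deviations of forestomach and lung of a mouse from their group means correlated at a median of 0.209 (18 of 20 mice above 0.1), those of forestomach and liver at -0.002 and those of lung and liver at 0.05. Alternatives were normexp with an offset of 50, processed signals, the deposited ratios, quantile normalization, other filters, mouse or slide as a block and leaving out each mouse. The Cy5 signal alone and slides 1, 4 and 5 alone were added after the values had been seen. The former was the unnormalized log2 Cy5 signal less the upper quartile of its array.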

Additional observations from a re-analysis of the deposited data

Results flagged for a closer look

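Of 156 groups of 5 arrays (1 probe in 1 tissue at 1 dose), 104 had at least 1 array well above background and were examined, and 12 of these had a highest or lowest array further from the rest than Dixon's 95% limit, where chance gives about 1 in 20. Of these, 9 were the vehicle lungs, through mouse 1, which was highest for Lor (6.89), Sprr1b (2.21), Sprr3 (4.82), Crct1 (7.01), Krtdap (5.80), Sbsn (3.77), Tgm3 probe A_51_P495560 (3.52) and both Calml3 probes (6.63 and 2.79). They come from 1 array, which had already been singled out, and are not 9 separate events. In 5 of the 9 groups (Sprr1b, Sprr3, Crct1, Krtdap and the dimmer Calml3 probe) mouse 1 was the only array well above background, so they entered through it, and the chance rate does not apply to these 9. The other 3 were in forestomach. Sprr3 was lowest in vehicle mouse 2 (4.48) and in D3 mouse 18 (5.86), and Tgm3 probe A_55_P2163493 was highest in D1 mouse 6 (0.73).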

How the results depend on the processing

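The 9 members called against lung and against liver in vehicle mice stayed 9 under each alternative but the filter on all arrays, where 8 of 9 tested were called. With mouse as a replicate block, which pairs the tissues of an animal, the counts were 9, 9 and 6 (lung against liver) and no other call changed. Lung against liver was the unstable comparison, with 2 members over the mean of 4 doses, 3 with the Cy5 signal alone, and 2 (without mouse 1) to 7 (without mouse 5) when a mouse was left out. No member was called with dose under any alternative. Over all probes, D3 called 1 (processed signals) and 21 (slide block) in lung, 5 (processed signals), 5 (quantile) and 24 (slide block) in liver and 0 to 29 with a mouse left out (29 without mouse 1), D2 called 1 in forestomach on slides 1, 4 and 5 alone, and the change at D3 of forestomach minus lung and minus liver called 0 to 1 (1 without mouse 5). The causes were not tested.

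Of the signs that turned, 1 was of a called result, Crct1 in lung against liver, which was 1.43 and fell below 0 without mouse 1. At D3 in forestomach the Cy5 signal alone gave Lor 0.20, Ivl -0.017, Sprr1b -0.057, Krtdap 0.68 and Sbsn 0.54, and slides 1, 4 and 5 alone Lor 0.043, Ivl -0.29, Sprr1a -0.078, Sprr1b -0.42, Tgm3 -0.50 and the dimmer Calml3 probe -0.22. Quantile normalization gave Sprr3 -0.057, Crct1 -0.19 and Calml3 -0.026, and processed signals Crct1 -0.13 and, in lung, Calml3 0.053. In lung against liver, Ivl was -0.38 (Cy5 alone), -0.021 (normexp) and -0.092 (processed), its second probe -0.40 (Cy5 alone) and -0.030 (mean over doses), Sprr1a -0.21 (mean over doses), the brighter Tgm3 probe -0.41 (Cy5 alone), -0.15 (deposited) and -0.076 (quantile), and the other -0.60 (processed). With Cy5 alone the brighter Tgm3 probe was 0.028 at D3 in liver and 0.14 in forestomach against lung.

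Leaving out a mouse turned, at D3 in lung, Calml3 (-1.22 to 0.33), its dimmer probe (-0.48 to 0.26), Sbsn (-1.36 to 0.058) and the brighter Tgm3 probe (-0.048 to 0.011). In forestomach it turned Crct1 (-0.032 to 0.37), Ivl (-0.18 to 0.52), Sbsn (-0.22 to 0.045), Sprr1a (-0.12 to 0.25), Sprr1b (-0.37 to 0.63), Sprr3 (-0.038 to 0.52) and Tgm3 (-0.10 to 1.07), and in liver Lor (-0.0040 to 0.24) and Sprr1a (-0.15 to 0.028). In lung against liver it turned Crct1 (-0.046 to 1.83), Ivl (-0.0034 to 0.057), Sprr1a (-0.19 to 0.87), Sprr1b (-0.14 to 0.67) and Tgm3 (-0.23 to 0.68). The Cy5 signal alone moved the median of all probes by 0.39 in forestomach against lung, 0.19 against liver and -0.25 in lung against liver. Ratios of dim probes such as Ivl are limited by background.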
